A study of Mus musculus with 9 samples.

Results

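Total parenteral nutrition (TPN) supplies nutrients through the bloodstream instead of the gut lumen. Here mouse jejunum, the middle stretch of the small intestine, was compared by RNA sequencing after 24 h of TPN and after 24 h of a sham treatment. Libraries were assigned to groups from their labels, and the comparison sets the 3 TPN libraries against the 3 sham libraries, 6 of the 9 libraries of the series, over every gene of a protein-coding count table. The other 3 libraries came from mice starved for 24 h. They entered the estimate of the spread and a direct comparison with TPN. Of strain, genotype, sex, age, the infused mixture and the feeding of the sham mice, the sources used here give nothing. The libraries are labelled as biological replicates, with no statement that mice differ between them, so p-values measure the spread between these libraries.

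The jejunal epithelium is fed from both sides, by luminal food and by blood. Enterocytes carry digestive enzymes and carriers for sugars, amino acids, nucleosides, vitamins and minerals in their brush border, and they hold a large set of enzymes that modify and export foreign compounds. Nuclear receptors and other ligand-activated factors that sense fatty acids, bile acids, steroids, sterols and plant compounds set the level of many of these genes. The same tissue holds smooth muscle, fibroblasts, vessels, immune cells and nerves, and RNA from the whole opened piece was sequenced together. In such bulk RNA, fewer cells of a type and less RNA per cell cannot be told apart.

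The libraries held 7779877 to 12084278 counts each. Levels are given as CPM, a count scaled to a common library total and corrected by TMM factors, in the order of replicates 1, 2 and 3. Sham replicate 2 stood apart: 12 smooth muscle genes summed to 11297 CPM there, against 482 to 1431 in the other 5 sham and TPN libraries. Its 2 mesothelial markers summed to 324 CPM, against 1.55 to 37.9 in the other 5. Pancreatic acinar genes reached 2855 CPM in sham replicate 1, 265 in TPN replicate 1 and 15206 in TPN replicate 2, and at most 2.35 in the other 3. Enterocyte, goblet, Paneth, tuft and enteroendocrine markers were detected in every library. Each result was therefore also computed without sham replicate 2, once with the starvation libraries in the fit (8 libraries) and once without them (5 libraries).

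**Figure D1:**
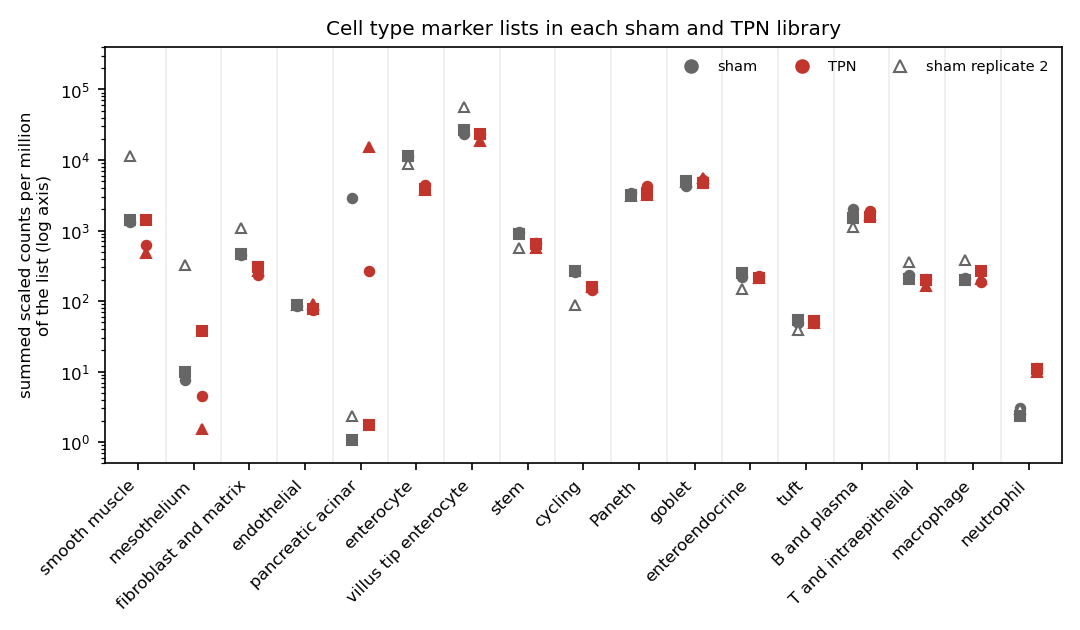
Summed scaled CPM (log axis) of 17 marker lists in the 3 sham libraries (grey, open triangle for replicate 2) and the 3 TPN libraries (red). Sham replicate 2 stands far above the other 5 libraries for smooth muscle and mesothelium. The enterocyte sum is lower and the neutrophil sum higher in all 3 TPN libraries. Acinar genes follow single libraries rather than groups.

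Between TPN and sham 1261 of 14668 genes tested differed (8.6%) at an adjusted p under 0.05 in edgeR's quasi-likelihood test. Of these, 510 rose (3.48% of genes tested) and 751 fell (5.12%). At least a 2-fold difference was seen for 282 of the rises and 380 of the falls, and at least an 8-fold difference for 25 and 21. The genes that fell took 12.4 to 14.4% of all counts in the sham libraries and 6.94 to 7.35% in the TPN libraries. The genes that rose took 1.67 to 2.14% in sham and 4.70 to 5.07% in TPN. For all 1261 genes the sham and TPN libraries did not overlap, which was also true of 42.7% of all genes tested.

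All 1261 calls kept their sign without sham replicate 2. Since their sham and TPN libraries did not overlap, leaving that library out could hardly reverse a sign, so this is no test of its influence. The 8-library fit called 351 genes higher (2.35%) and 597 lower (4%), among them 287 of the 510 and 497 of the 751. The 5-library fit called 2251 higher (15.4%) and 2483 lower (17%), among them 509 of the 510 and all 751. The number of calls moved with single libraries of every group. It was 83 to 113 higher and 125 to 133 lower without TPN replicate 1, 2 or 3, 216 and 347 without sham replicate 1, 142 and 253 without sham replicate 3, 259 and 431 without starvation replicate 2, and 1477 and 1705 without starvation replicate 3. In all 9 fits that left out 1 library 76 genes were called higher and 108 lower. Of the 138 genes named in this report that passed, 52 were called in all 9 of these fits and 40 in 4 or fewer. The split between rises and falls moved with the scaling, to 702 and 665 with upper quartile factors and to 651 and 573 with library totals only, which put the median of all genes at 0.17 on the log2 scale, against -0.02 with TMM factors.

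**Figure D2:**
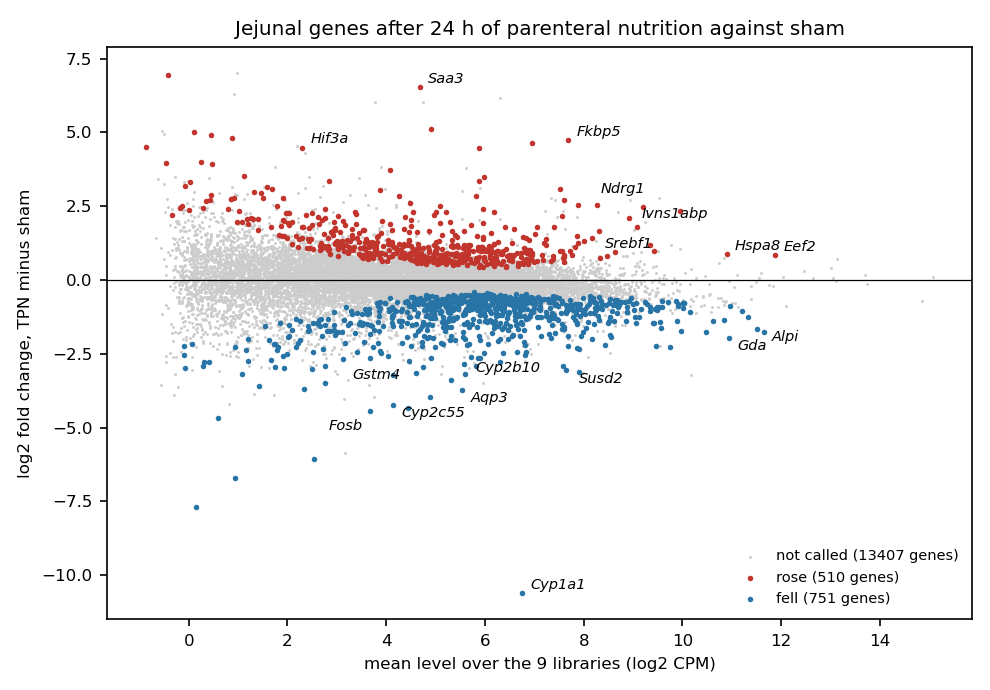
Log2 fold change of TPN against sham for each gene tested, against its mean level over the 9 libraries (log2 CPM). Red points are the 510 genes that rose and blue points the 751 that fell; the genes that fell have a median mean level of 5.96 and those that rose one of 4.79.

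Genes that glucocorticoids are known to induce were among the largest rises. Of 20 genes of a glucocorticoid response list, 10 rose and none fell, with a median log2 fold change of 1.36, against -0.02 over all genes. Without sham replicate 2 the 8-library fit called 11 of them higher, at a median of 1.36. Hif3a encodes an inhibitory partner of the hypoxia-inducible factors. It measured 0.491, 0.533 and 0.417 CPM in sham and 8.90, 15.6 and 8.41 in TPN (log2 fold change 4.48, SE 0.54, edgeR adjusted p 0.00279). Sham was near the level of a few reads, and the 3 TPN libraries lay well above it. Sgk1, a kinase that keeps ion carriers at the cell surface, measured 158, 139 and 142 CPM in sham and 877, 784 and 761 in TPN (log2 fold change 2.46, SE 0.33, edgeR adjusted p 0.00393). Cebpd, a transcription factor of the acute response, went from 24.3, 39.0 and 24.8 CPM to 109.5, 107 and 122 (log2 fold change 1.94, SE 0.19, edgeR adjusted p 0.00111), the higher sham value being that of replicate 2. Tsc22d3, which encodes the glucocorticoid-induced leucine zipper protein, measured 117, 133 and 115 CPM in sham and 356, 355 and 323 in TPN (log2 fold change 1.505, SE 0.21, edgeR adjusted p 0.00507). The receptor gene itself, Nr3c1, did not pass (log2 fold change -0.17, SE 0.14).

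Metallothionein 2 (Mt2), a small metal-binding protein induced by zinc and by glucocorticoids, measured 7.95, 2.67 and 4.75 CPM in sham and 124, 134 and 127 in TPN (log2 fold change 4.64, SE 0.43, edgeR adjusted p 0.000811). The 250 bases upstream of its start site (chr8:94172368-94172617, plus strand, RefSeq, GRCm38.p6) held TGCNCNC, a loose form of the metal response element core, at 5 places. Not every match fits the stricter core TGCRCNC (R is A or G). Both strands were searched, and the matches are shown in capitals because Mt2 had the largest rise in the zinc and copper list.
Mt2: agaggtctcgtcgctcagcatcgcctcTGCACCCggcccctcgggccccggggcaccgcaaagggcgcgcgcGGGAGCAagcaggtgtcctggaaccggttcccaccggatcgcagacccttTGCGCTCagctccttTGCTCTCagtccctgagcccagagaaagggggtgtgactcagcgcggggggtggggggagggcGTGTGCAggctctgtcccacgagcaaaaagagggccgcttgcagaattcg
The loose pattern is short, and 56.6% of 11367 promoters of genes tested held it at least once. Of the 13 zinc and copper genes tested, 3 rose, namely Mt2, Mt1 (log2 fold change 3.10, SE 0.38) and the zinc exporter Slc30a4. The copper importer Slc31a1 was the 1 that fell. Mt2 belongs to the glucocorticoid list as well. Slc30a4 measured 148, 122 and 147 CPM in sham and 305, 275 and 244 in TPN (log2 fold change 0.98, SE 0.16, edgeR adjusted p 0.00919). Slc31a1 measured 373, 356 and 352 CPM in sham and 245, 224 and 207 in TPN (log2 fold change -0.68, SE 0.18, edgeR adjusted p 0.0475). The zinc and manganese importer Slc39a8, outside that list, rose from 10.1, 23.4 and 9.25 CPM to 56.4, 61.9 and 76.2 (log2 fold change 2.19, SE 0.33, edgeR adjusted p 0.00652).

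Genes of fatty acid use changed in both directions. Among 28 genes of fatty acid oxidation and ketone bodies 6 rose and 2 fell, while the median of the list was -0.33. The 8-library fit without sham replicate 2 called 5 higher and 5 lower, and DESeq2 called 6 higher and 8 lower. Acot1, a cytosolic acyl-CoA thioesterase, went from 7.95, 6.29 and 5.91 CPM to 39.1, 43.0 and 39.9 (log2 fold change 2.60, SE 0.39, edgeR adjusted p 0.00639). Vnn1, which splits pantetheine, measured 22.6, 52.8 and 31.7 CPM in sham and 121, 96.6 and 105 in TPN (log2 fold change 1.59, SE 0.35, edgeR adjusted p 0.0257). Both are known targets of the fatty acid receptor PPAR-alpha. The peroxisomal thiolase Acaa1b fell instead, from 31.6, 37.6 and 41.2 CPM to 16.8, 11.2 and 17.1 (log2 fold change -1.29, SE 0.27, edgeR adjusted p 0.0231). Hif3a, Sgk1, Cebpd, Tsc22d3, Mt2, Slc39a8 and Acot1 were called in each of the 9 fits that left out 1 library. Without sham replicate 2 (8 libraries), the threshold was missed by Slc31a1 (-0.69, edgeR adjusted p 0.0767).

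The receptor genes moved apart from each other. Of 23 nuclear receptor genes, 3 rose and 2 fell (2 and 2 in the 8-library fit without sham replicate 2), against 3.48% and 5.12% of all genes tested. Ppara measured 25.3, 12.8 and 31.3 CPM in sham and 91.3, 89.9 and 73.6 in TPN (log2 fold change 1.87, SE 0.29, edgeR adjusted p 0.00773). Ppard, a related fatty acid receptor, went the other way, from 258, 147 and 234 CPM to 102, 84.4 and 79.0 (log2 fold change -1.27, SE 0.23, edgeR adjusted p 0.0134), and Pparg fell from 16.8, 12.9 and 12.7 CPM to 4.61, 4.29 and 5.69 (log2 fold change -1.53, SE 0.29, edgeR adjusted p 0.0154). For both, sham libraries were the higher ones without overlap. The bile acid receptor Nr1h4 (FXR) rose from 23.0, 10.99 and 17.1 CPM to 39.1, 34.9 and 34.9 (log2 fold change 1.09, SE 0.23, edgeR adjusted p 0.0237), and the xenobiotic receptor Nr1i2 (PXR) from 61.7, 58.3 and 74.2 to 152, 129 and 127 (log2 fold change 1.07, SE 0.28, edgeR adjusted p 0.0452). Among 8 bile acid genes tested, 2 rose and 1 fell (1 and 1 in the 8-library fit without sham replicate 2): Nr1h4, the bile acid importer Slc10a2, which was low in both groups (1.47, 0.854 and 0.666 CPM in sham, 4.78, 4.89 and 3.20 in TPN, log2 fold change 2.09, SE 0.48, edgeR adjusted p 0.0314), and the exporter Abcc3, which fell (log2 fold change -1.60, SE 0.21). Abca1, the sterol exporter that liver X receptors induce, rose from 25.7, 35.8 and 35.2 CPM to 88.8, 87.6 and 76.4 (log2 fold change 1.38, SE 0.18, edgeR adjusted p 0.00332). Ppara and Abca1 were called in each of the 9 fits that left out 1 library. Leaving out sham replicate 2 from the 9 libraries ended the call of Nr1i2 (0.997, edgeR adjusted p 0.111) and Slc10a2 (2.002, edgeR adjusted p 0.0662).

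Insulin and FOXO genes gave 4 rises and no fall among 21 genes tested, against 3.48% and 5.12% of all genes tested. The list as a whole did not shift, with a median of 0.06 and 11 positive and 10 negative estimates. At an unadjusted p under 0.05 in edgeR, 7 were higher and 5 lower. The 8-library fit without sham replicate 2 called 3 higher and 0 lower. The insulin receptor gene Insr, which FOXO factors raise when insulin signalling is low, measured 79.3, 67.6 and 72.6 CPM in sham and 156, 159 and 125 in TPN (log2 fold change 0.999, SE 0.16, edgeR adjusted p 0.00842). Bcl6, a transcriptional repressor, went from 11.6, 9.50 and 8.08 CPM to 35.5, 36.5 and 31.2 (log2 fold change 1.82, SE 0.18, edgeR adjusted p 0.00109). Foxo1 itself rose by a small amount, from 67.3, 66.0 and 72.6 CPM to 91.8, 92.9 and 97.5 (log2 fold change 0.45, SE 0.12, edgeR adjusted p 0.0427). The rises were Insr, Bcl6, Foxo1 and Tsc22d3. Outside that list, Eif4ebp3, which encodes a protein that holds back cap-dependent translation, went from 10.7, 9.28 and 9.58 CPM to 55.1, 47.3 and 44.0 (log2 fold change 2.31, SE 0.38, edgeR adjusted p 0.00942). Its locus overlaps another annotated gene, AC115631.1, and the sources used here do not tell how shared reads were assigned. Bcl6 and Eif4ebp3 were called in each of the 9 fits that left out 1 library. The call was lost in the 8-library fit without sham replicate 2 for Foxo1 (0.43, edgeR adjusted p 0.0763).

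**Figure D3:**
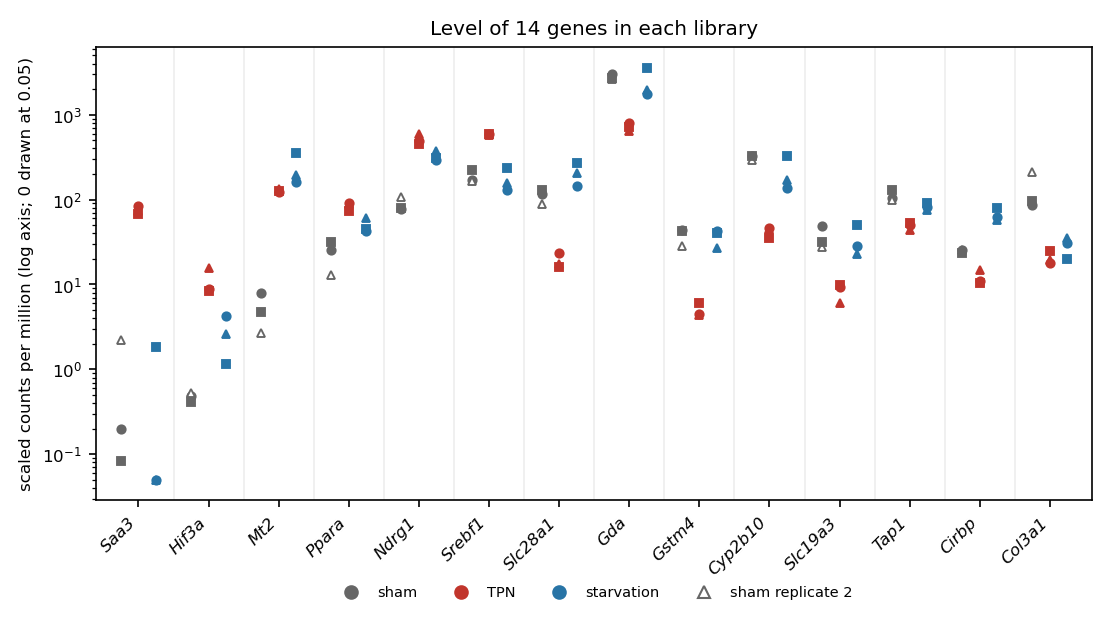
Scaled CPM (log axis) of 14 genes in each sham (grey), TPN (red) and starvation (blue) library, with sham replicate 2 as an open triangle. In each of the 14 genes the 3 TPN libraries lie apart from the 3 sham libraries, as they do for all 1261 called genes. The starvation libraries lie above TPN for Mt2, among or next to sham for Gstm4, and above sham for Cirbp and Slc28a1.

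Of the 14 acute phase genes tested, 6 rose and none fell, with a median of 1.07, or 1.75 without sham replicate 2, where 6 were again called higher. Saa3, a serum amyloid A protein made at epithelial and stromal sites, measured 0.196, 2.24 and 0.0833 CPM in sham and 83.6, 73.5 and 66.9 in TPN (log2 fold change 6.54, SE 1.03, edgeR adjusted p 0.00811). Only sham replicate 2 was above 1 CPM among the sham libraries. Osmr, the oncostatin M receptor, measured 9.72, 10.3 and 9.66 CPM in sham and 43.0, 55.8 and 47.7 in TPN (log2 fold change 2.30, SE 0.47, edgeR adjusted p 0.0206). Cp, which encodes the copper-carrying ferroxidase ceruloplasmin, went from 11.9, 16.2 and 10.7 CPM to 30.9, 34.0 and 25.9 (log2 fold change 1.23, SE 0.21, edgeR adjusted p 0.0101). Outside the list, Steap4, a metalloreductase induced in inflammation, went from 1.28, 7.79 and 4.17 CPM to 32.4, 36.2 and 40.1 (log2 fold change 3.04, SE 0.60, edgeR adjusted p 0.0177). Within it, Serpina3g and Serpina3n rose (log2 fold changes 1.20 and 4.47). With Serpina3f they formed a run of 3 genes that rose, at chr12:104214544-104414329 (GRCm38). Runs were taken over the genes tested, so untested genes may lie between their members. These serpins are close copies, so reads may be shared between them.

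The neutrophil markers summed to 2.33 to 3.04 CPM in sham and 9.89 to 11.1 in TPN, and 1 of the 3 tested passed, or 2 in the 8-library fit without sham replicate 2. None of the 4 macrophage markers passed in edgeR, at an unadjusted p under 0.05 or in DESeq2 (median -0.29). S100a9 and Ly6g were not tested: S100a9 had no count in sham and 5 to 8 counts in TPN, and Ly6g had none in any library. Il1rn, the interleukin 1 receptor antagonist, went from 3.83, 5.44 and 4.498 CPM to 14.3, 15.5 and 15.3 (log2 fold change 1.71, SE 0.40, edgeR adjusted p 0.0347), and 5 of the 25 chemokine and cytokine genes tested rose while Il33 fell (log2 fold change -1.27, SE 0.31). The 8-library fit without sham replicate 2 called 2 of the 25 higher and 1 lower. The formyl peptide receptor genes Fpr1, Fpr2 and Fpr3, phagocyte receptors for bacterial peptides, were chosen here after their values were seen. They form a run of 3 genes adjacent among the genes tested. Fpr1 measured 0.589, 1.49 and 0.25 CPM in sham and 6.02, 9.06 and 5.69 in TPN (log2 fold change 3.17, SE 0.59, edgeR adjusted p 0.0141), while Fpr2 and Fpr3 overlap each other and cannot be separated. Of 33 genes of matrix metalloproteinases and their inhibitors 2 rose and 1 fell, or 3 and 1 without sham replicate 2, against 3.48% of all genes tested that rose and 5.12% that fell. Adamts4, a protease that cuts proteoglycans, went from 2.45, 1.07 and 1.67 CPM to 15.5, 23.96 and 13.9 (log2 fold change 3.35, SE 0.43, edgeR adjusted p 0.00347), and the collagenase Mmp13 from 12.9, 16.3 and 10.7 to 36.2, 29.4 and 29.6 (log2 fold change 1.26, SE 0.21, edgeR adjusted p 0.00919). The part of neutrophil number in these rises was not tested. Saa3, Serpina3g and Adamts4 were called in each of the 9 fits that left out 1 library. Without sham replicate 2 (8 libraries), the threshold was missed by Il1rn (1.85, edgeR adjusted p 0.0501) and Il33 (-1.06, edgeR adjusted p 0.0904).

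Of the 38 interferon-response genes tested, 17 fell and 1 rose, with a median of -0.83. Without sham replicate 2 the 8-library fit called 10 lower and 1 higher, at a median of -0.77. Tap1, a subunit of the peptide pump that loads MHC class I, measured 104, 100.2 and 129 CPM in sham and 50.02, 44.1 and 52.7 in TPN (log2 fold change -1.18, SE 0.15, edgeR adjusted p 0.00313). The GTPase Igtp (Irgm3) went from 145, 131 and 167 CPM to 47.6, 43.3 and 49.2 (log2 fold change -1.66, SE 0.25, edgeR adjusted p 0.00715). Isg15, a ubiquitin-like modifier, measured 91.2, 291 and 129 CPM in sham and 26.8, 27.7 and 36.7 in TPN (log2 fold change -2.49, SE 0.67, edgeR adjusted p 0.0493). The highest sham value was that of replicate 2, and all 3 lay above TPN. Ifitm1, a membrane protein that restricts virus entry, was the member that rose, from 4.71, 6.08 and 4.25 CPM to 21.8, 25.5 and 22.8 (log2 fold change 2.22, SE 0.27, edgeR adjusted p 0.0029). Of the lead transcription factors, Irf1 (log2 fold change -0.55, SE 0.26) and Irf7 (log2 fold change -1.43, SE 0.44) did not pass.

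Factors of the interferon pathway bind the interferon-stimulated response element, whose core (GAAA, any 2 bases, GAAA) was searched on both strands of the 250 bases before each start site, matches being allowed to overlap. Promoters of 4 genes that fell are shown with the core in capitals, since these genes moved together; Ifit3 and Irgm1 were added for their matches after their values were seen. They lie at chr4:156200819-156201068 (minus strand), chr19:34583279-34583528 (plus), chr11:58199306-58199555 (plus) and chr11:48871421-48871670 (minus), from RefSeq on GRCm38.p6.
Isg15: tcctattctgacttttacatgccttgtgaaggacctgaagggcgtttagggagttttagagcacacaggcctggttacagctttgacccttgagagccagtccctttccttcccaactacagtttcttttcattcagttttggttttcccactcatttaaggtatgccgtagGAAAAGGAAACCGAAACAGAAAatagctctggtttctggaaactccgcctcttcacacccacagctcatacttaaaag
Ifit3: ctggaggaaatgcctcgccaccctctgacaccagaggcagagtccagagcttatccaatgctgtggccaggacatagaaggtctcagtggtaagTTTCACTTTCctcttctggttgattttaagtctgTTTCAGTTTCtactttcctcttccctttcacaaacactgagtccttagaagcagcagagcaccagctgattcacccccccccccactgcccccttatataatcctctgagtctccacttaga
Igtp: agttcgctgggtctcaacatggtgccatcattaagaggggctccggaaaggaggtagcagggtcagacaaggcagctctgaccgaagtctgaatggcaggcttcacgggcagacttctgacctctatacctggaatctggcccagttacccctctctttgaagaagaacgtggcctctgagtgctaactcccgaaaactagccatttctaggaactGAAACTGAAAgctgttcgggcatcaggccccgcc
Irgm1: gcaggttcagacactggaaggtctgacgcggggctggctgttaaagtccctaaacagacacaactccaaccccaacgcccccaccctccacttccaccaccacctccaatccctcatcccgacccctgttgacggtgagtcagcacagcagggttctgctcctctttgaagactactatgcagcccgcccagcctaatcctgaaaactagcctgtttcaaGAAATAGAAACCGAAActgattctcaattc
The core was in 3.44% of 11367 promoters. It was in 8 of the 15 promoters matched for interferon-list genes that fell and in 7 of the 14 for those that did not pass. Ifit3 measured 80.3, 143 and 126 CPM in sham and 42.9, 37.7 and 53.6 in TPN (log2 fold change -1.38, SE 0.34, edgeR adjusted p 0.0383), and Irgm1 measured 75.6, 68.8 and 89.3 in sham and 39.3, 40.6 and 43.1 in TPN (log2 fold change -0.93, SE 0.17, edgeR adjusted p 0.0145).

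The proteasome, which cuts proteins and supplies peptides for MHC class I, gave 12 falls and no rise among 41 genes (median -0.48). Without sham replicate 2 the 8-library fit called 9 lower, at a median of -0.35. All 3 interferon-induced catalytic subunits fell (median -1.30), as did both tested alpha and beta subunits of the activator PA28 (median -1.09). Of the 6 ATPases of the regulatory particle 4 fell, of the 14 constitutive core subunits 2, and of the 14 other regulatory subunits 1. Psmb8, one of the interferon-induced subunits, measured 132, 155 and 136 CPM in sham and 50.4, 38.5 and 53.6 in TPN (log2 fold change -1.57, SE 0.24, edgeR adjusted p 0.00698). Psmb10 measured 179, 168 and 202 in sham and 76.2, 73.7 and 73.6 in TPN (log2 fold change -1.30, SE 0.23, edgeR adjusted p 0.0119), and the ATPase Psmc4 49.8, 46.9 and 56.1 in sham and 27.9, 25.4 and 26.7 in TPN (log2 fold change -0.93, SE 0.15, edgeR adjusted p 0.00885). Psmb8, Psmb9, Tap1 and Tap2 are adjacent among the genes tested, at chr17:34181987-34216321, and all 4 fell. Psmb9 and Tap1 overlap, so reads may be shared. The 10 MHC class II genes gave no call in either direction (edgeR; median -0.55), with 3 lower at an unadjusted p under 0.05, 2 lower in DESeq2 and 6 lower in the 5-library fit. Psmb8, Psmb9, Psmb10, Tap1 and Tap2 belong to the interferon list as well. Tap1, Igtp, Ifitm1 and Psmb8 were called in each of the 9 fits that left out 1 library. Leaving out sham replicate 2 from the 9 libraries ended the call of Isg15 (-1.86, edgeR adjusted p 0.126) and Ifit3 (-1.21, edgeR adjusted p 0.0885).

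Many falls were among enzymes that conjugate and oxidise foreign compounds. Of 22 glutathione S-transferase genes 11 fell and 1 rose (median -0.83), and 10 fell without sham replicate 2. Of the mu class 6 of 7 fell, and these 6 are adjacent among the genes tested, at chr3:107926334-108044894. Gstm4 measured 44.2, 28.2 and 42.4 CPM in sham and 4.53, 4.41 and 6.01 in TPN (log2 fold change -2.93, SE 0.26, edgeR adjusted p 0.00066). Gstm1 measured 126, 126 and 129.9 in sham and 29.9, 33.7 and 38.2 in TPN (log2 fold change -1.90, SE 0.16, edgeR adjusted p 0.00046), and Gstm6 37.1, 35.0 and 37.7 in sham and 15.8, 15.02 and 14.5 in TPN (log2 fold change -1.28, SE 0.14, edgeR adjusted p 0.00176). The paralogs resemble each other, so part of each change may be shared reads. Mgst1, a membrane-bound member, rose from 169, 114 and 159 CPM to 351, 316 and 289.7 (log2 fold change 1.11, SE 0.20, edgeR adjusted p 0.0117). NRF2 targets, an antioxidant set, gave 8 falls and no rise among 16, with Srxn1, which repairs oxidised peroxiredoxin, at 491, 644 and 481 CPM in sham and 231, 221 and 233 in TPN (log2 fold change -1.24, SE 0.26, edgeR adjusted p 0.0219).

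Cytochrome P450 family 2 gave 7 falls and no rise among 20 genes, and 5 falls in the 8-library fit without sham replicate 2. Cyp2b10, the classic target of the receptor CAR, measured 329, 289 and 331 CPM in sham and 45.9, 45.5 and 35.4 in TPN (log2 fold change -2.90, SE 0.31, edgeR adjusted p 0.00174). A run of 4 Cyp2c genes at chr19:39007019-39330713 all fell, including Cyp2c65, which measured 232, 182 and 197 CPM in sham and 64.2, 43.0 and 55.4 in TPN (log2 fold change -1.91, SE 0.26, edgeR adjusted p 0.004). Families 3 and 4 differed: Cyp4f16 fell (log2 fold change -1.48, SE 0.25), while Cyp4a32 (log2 fold change 1.41, SE 0.33) and Cyp4f40 (log2 fold change 1.09, SE 0.26) rose among 14 tested. Glucuronosyl and sulfo transferases gave 7 falls and no rise among 22, and 12 falls and 1 rise in the 8-library fit without sham replicate 2. Ugt2b5 went from 53.5, 28.3 and 48.9 CPM to 8.90, 9.77 and 8.57 (log2 fold change -2.26, SE 0.24, edgeR adjusted p 0.00164), and Ugt2b34 from 1401, 1105 and 1317 to 521, 458 and 466 (log2 fold change -1.40, SE 0.20, edgeR adjusted p 0.00536). Of the 7, 4 are transcripts of the Ugt1a locus that differ in their first exon, share their later exons and had nearly the same values (Ugt1a9: 1398, 979 and 1462 in sham and 766, 739 and 726 in TPN), so they count as 1 observation.

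Aldo-keto reductases moved both ways. Akr1c14, which reduces steroids, measured 81.9, 39.2 and 57.1 CPM in sham and 12.2, 7.03 and 10.01 in TPN (log2 fold change -2.60, SE 0.28, edgeR adjusted p 0.00176). Akr1b7, which reduces aldehydes, went up from 10.2, 12.6 and 12.2 CPM to 67.6, 50.8 and 56.1 (log2 fold change 2.32, SE 0.33, edgeR adjusted p 0.00507). Outside the lists, Ptgr1, which inactivates leukotriene B4, rose from 8.93, 7.58 and 8.50 CPM to 53.6, 48.3 and 39.4 (log2 fold change 2.50, SE 0.29, edgeR adjusted p 0.00251), and Hpgd, which inactivates prostaglandins, from 224, 273 and 191 to 912, 696 and 806 (log2 fold change 1.81, SE 0.33, edgeR adjusted p 0.0124). Of 30 ABC transporters 2 rose and 3 fell (3 and 5 in the 8-library fit without sham replicate 2), against 3.48% and 5.12% of all genes tested. Among the falls was the drug exporter Abcb1a, from 133, 163 and 169.5 CPM to 65.0, 70.7 and 60.7 (log2 fold change -1.246, SE 0.24, edgeR adjusted p 0.0155). Gstm4, Gstm1, Gstm6, Cyp2b10, Cyp2c65, Ugt2b5, Ugt2b34, Akr1c14, Akr1b7 and Ptgr1 were called in each of the 9 fits that left out 1 library. The call was lost in the 8-library fit without sham replicate 2 for Srxn1 (-1.09, edgeR adjusted p 0.0504).

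**Figure D4:**
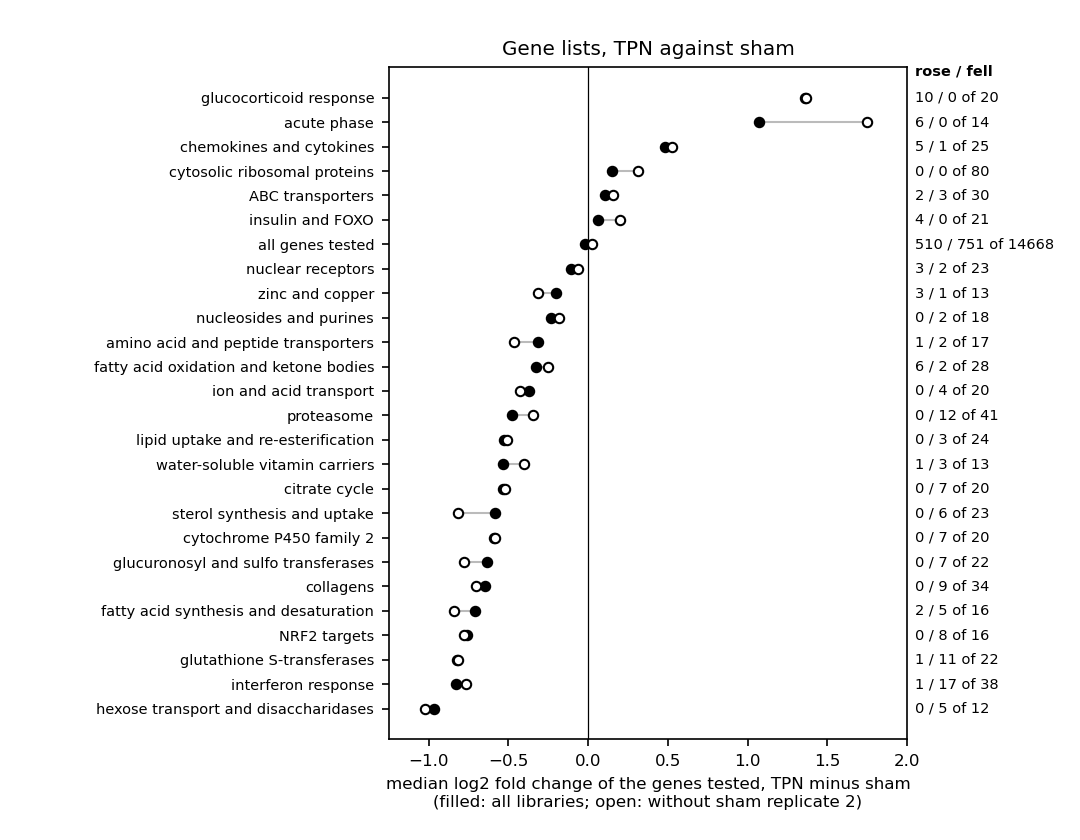
Median log2 fold change of TPN against sham over the tested genes of 25 lists and over all genes, with all libraries (filled) and in the 8-library fit without sham replicate 2 (open); the right margin gives how many genes rose and fell of how many tested. Among the lists shown, the glucocorticoid and acute phase lists have the highest medians with and without that library, and the hexose list the lowest. Lists not shown lie lower, such as the small proline-rich proteins (4 genes tested, median -2.50) and calcium and vitamin D (4 genes tested, median -1.23).

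Falls were called in each of the absorptive lists described next, and in each list most genes did not pass. Over all genes tested 5.12% fell and 3.48% rose. Some of these lists held only 1 fall: iron 1 of 11 genes, calcium and vitamin D 1 of 4, and retinoids 1 of 13, where 2 rose. The 5 enterocyte markers Alpi, Sis, Anpep, Fabp1 and Vil1 summed to 8910 to 11408 CPM in sham and 3729 to 4427 in TPN. Alpi and Anpep were the most abundant of them in each sham library. Both are also members of lists described below, so the sum is not separate from those falls. The part of enterocyte content in the falls below was not tested. Of the 5 enterocyte markers 2 passed, while Sis (log2 fold change -0.71, SE 0.20) did not and Fabp1 (log2 fold change 0.40, SE 0.22) was higher in TPN without passing. At an unadjusted p under 0.05 in edgeR 4 of the 5 were lower, as in DESeq2 and in the 5-library fit. The 5 villus tip genes summed to 23502 to 56639 CPM in sham and 18728 to 23441 in TPN. Apoa4 alone measured 22313 to 54394 in sham and 17929 to 22402 in TPN, so the sum mostly follows that gene. The highest sham value was that of replicate 2. None of the 5 genes passed in edgeR, at an unadjusted p under 0.05 or in DESeq2. The 5-library fit called 2 of them lower.

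Nucleoside handling gave 2 falls among 18 genes. Slc28a1, the sodium-coupled carrier of pyrimidine nucleosides, measured 117, 87.7 and 129 CPM in sham and 23.7, 17.4 and 16.3 in TPN (log2 fold change -2.54, SE 0.27, edgeR adjusted p 0.00167). Gda, guanine deaminase, measured 3026, 2641 and 2694 CPM in sham and 795, 641 and 707 in TPN (log2 fold change -1.96, SE 0.28, edgeR adjusted p 0.00528). The TPN libraries lay far under the sham libraries for both. The other 16 did not pass.

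The 2 thiamine transporters moved in opposite directions. Slc19a3 fell from 49.3, 27.5 and 31.9 CPM to 9.39, 6.08 and 9.85 (log2 fold change -2.09, SE 0.35, edgeR adjusted p 0.00945), and Slc19a2 rose from 23.9, 13.8 and 21.7 to 58.3, 71.5 and 42.5 (log2 fold change 1.53, SE 0.24, edgeR adjusted p 0.0077). The riboflavin carrier Slc52a2 fell from 178, 150.2 and 187 CPM to 87.4, 79.5 and 73.0 (log2 fold change -1.10, SE 0.19, edgeR adjusted p 0.0113), and the biotin and pantothenate carrier Slc5a6 from 19.4, 26.1 and 25.2 to 12.2, 12.6 and 10.8 (log2 fold change -0.99, SE 0.18, edgeR adjusted p 0.0127). These 4 were the calls among 13 genes. In the retinoid list the retinal dehydrogenase Aldh1a1 fell, from 246, 266 and 277 CPM to 118, 121 and 117 (log2 fold change -1.15, SE 0.15, edgeR adjusted p 0.00364), and Dhrs9 rose from a low level, 2.06, 4.69 and 1.17 CPM to 14.5, 13.0 and 14.3 (log2 fold change 2.41, SE 0.53, edgeR adjusted p 0.0258).

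Among ion and acid carriers 4 of 20 fell and none rose. Car2, carbonic anhydrase 2, measured 71.7, 90.0 and 57.6 CPM in sham and 21.5, 12.8 and 20.6 in TPN (log2 fold change -1.99, SE 0.37, edgeR adjusted p 0.0145). All 3 sham libraries lay well above the TPN libraries. The apical sodium-proton exchanger Slc9a2 went from 256, 313 and 274 CPM to 97.8, 83.4 and 86.4 (log2 fold change -1.66, SE 0.32, edgeR adjusted p 0.0161), and the phosphate carrier Slc20a1 from 75.5, 104 and 95.8 to 41.3, 40.8 and 35.6 (log2 fold change -1.23, SE 0.24, edgeR adjusted p 0.0169). Outside the list, Slc9a3r1, the NHERF1 scaffold that holds exchangers in the microvillus, went from 1682, 1915 and 1813 CPM to 580.5, 504 and 527 (log2 fold change -1.75, SE 0.29, edgeR adjusted p 0.00962). Of 8 aquaporins 3 fell, Aqp3 (log2 fold change -3.71, SE 0.31), Aqp8 (log2 fold change -2.51, SE 0.47) and the glycerol channel Aqp7, which measured 58.2, 85.8 and 58.6 CPM in sham and 8.65, 6.32 and 11.9 in TPN (log2 fold change -2.90, SE 0.55, edgeR adjusted p 0.0157). Cybrd1, the iron reductase of the brush border, fell from 40.0, 44.3 and 14.2 CPM to 4.12, 4.77 and 7.45 (log2 fold change -2.58, SE 0.44, edgeR adjusted p 0.00999), with sham replicate 3 nearest to the TPN libraries. Slc30a10, a manganese exporter on the calcium and vitamin D list, fell from 191, 80.3 and 117 CPM to 48.4, 27.9 and 27.1 (log2 fold change -1.91, SE 0.39, edgeR adjusted p 0.0192).

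Several brush border hydrolases fell. Mme, the peptidase neprilysin, measured 1941, 1907 and 1800.5 CPM in sham and 805, 630.4 and 700.2 in TPN (log2 fold change -1.40, SE 0.27, edgeR adjusted p 0.0157). In all, 4 of 13 peptidase genes fell, and 3 in the 8-library fit without sham replicate 2. Carboxypeptidase M (Cpm) rose, from 23.3, 9.92 and 17.1 CPM to 47.8, 40.9 and 36.5 (log2 fold change 1.31, SE 0.26, edgeR adjusted p 0.019). Intestinal alkaline phosphatase, Alpi, measured 5355, 2738 and 3634 CPM in sham and 1501, 792 and 1141 in TPN (log2 fold change -1.77, SE 0.44, edgeR adjusted p 0.0395), and the neutral ceramidase Asah2 610.3, 649.5 and 683 in sham and 269, 285 and 252 in TPN (log2 fold change -1.27, SE 0.24, edgeR adjusted p 0.0142). Of 17 amino acid and peptide carriers 2 fell and 1 rose, the last being Slc38a2, which starved cells induce (log2 fold change 0.91, SE 0.22). Of 24 lipid uptake genes 3 fell, and 1 in the 8-library fit without sham replicate 2. The 3 included the cholesterol importer Npc1l1, at 716, 1081 and 934 CPM in sham and 344, 349.6 and 312 in TPN (log2 fold change -1.44, SE 0.35, edgeR adjusted p 0.0372). Slc28a1, Gda, Slc19a2 and Aldh1a1 were called in each of the 9 fits that left out 1 library. Without sham replicate 2 (8 libraries), the threshold was missed by Slc38a2 (0.82, edgeR adjusted p 0.0903) and Npc1l1 (-1.30, edgeR adjusted p 0.0816).

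Of 20 citrate cycle genes 7 fell and none rose (median -0.54), and 5 fell without sham replicate 2. Both E1 and E2 subunits of the 2-oxoglutarate dehydrogenase complex were among them: Ogdh measured 896, 746 and 898 CPM in sham and 452, 421 and 391 in TPN (log2 fold change -1.01, SE 0.22, edgeR adjusted p 0.0253), and Dlst 498, 418 and 499 in sham and 238, 227 and 214 in TPN (log2 fold change -1.06, SE 0.18, edgeR adjusted p 0.0105). Of 77 nuclear genes of the respiratory chain and ATP synthase 7 fell and 2 rose, or 8 and 0 in the 8-library fit without sham replicate 2, where 4% and 2.35% of all genes tested did. Atp5g1, which encodes a c subunit of the ATP synthase, measured 166, 118 and 173 CPM in sham and 71.8, 77.2 and 71.4 in TPN (log2 fold change -1.05, SE 0.16, edgeR adjusted p 0.00682). None of the 13 mitochondrially encoded genes passed in edgeR (median 0.10), with 2 higher at an unadjusted p under 0.05 and 1 higher in DESeq2. In edgeR's fits without sham replicate 2, 1 of them was higher with 8 libraries and 4 with 5 libraries.

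Of 17 glycolysis genes 6 fell and none rose (median -0.44), and 3 fell in the 8-library fit without sham replicate 2. Of 12 genes of hexose transport and disaccharidases 5 fell and none rose (median -0.97), and 5 fell without that library. G6pc, the catalytic subunit of glucose 6-phosphatase, which frees glucose, rose from 60.9, 31.3 and 61.1 CPM to 172, 177 and 159 (log2 fold change 1.73, SE 0.25, edgeR adjusted p 0.00538). Gpd1, which makes glycerol 3-phosphate from a glycolytic intermediate, fell from 1041, 749.7 and 1031 CPM to 383, 325 and 329 (log2 fold change -1.44, SE 0.21, edgeR adjusted p 0.00507). Glud1, glutamate dehydrogenase, rose from 304, 357 and 382 CPM to 687, 748 and 636 (log2 fold change 0.99, SE 0.20, edgeR adjusted p 0.0184), while the transaminase genes Gpt (log2 fold change -1.02, SE 0.26), Got1 (log2 fold change -0.98, SE 0.26) and Got2 (log2 fold change -0.86, SE 0.20) fell. Hoga1, of hydroxyproline breakdown, fell from 1.77, 1.71 and 1.92 CPM to 0.247, 0.477 and 0.4 (log2 fold change -2.25, SE 0.54, edgeR adjusted p 0.0361), at few reads per library. Fatty acid synthesis genes and their regulator moved apart. Srebf1, a sterol-regulated factor that drives fatty acid synthesis, measured 169, 166 and 225 CPM in sham and 586, 577 and 597 in TPN (log2 fold change 1.65, SE 0.24, edgeR adjusted p 0.00536). Of the 16 genes of that list 5 fell and 2 rose, Srebf1 and Elovl7 (log2 fold change 0.77, SE 0.16). The Srebf1 locus overlaps another annotated gene.

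Sterol synthesis genes all had negative estimates: 23 of 23, of which 6 passed, with a median of -0.59, and 8 passed without sham replicate 2 (median -0.82). Over all genes tested 7533 of 14668 estimates were negative. Hmgcs1, which makes hydroxymethylglutaryl-CoA for the sterol route, measured 138, 104 and 119 CPM in sham and 82.6, 84.9 and 73.1 in TPN (log2 fold change -0.59, SE 0.14, edgeR adjusted p 0.036). Cyp51, lanosterol demethylase, measured 58.0, 32.6 and 48.4 in sham and 28.7, 25.03 and 26.5 in TPN (log2 fold change -0.79, SE 0.21, edgeR adjusted p 0.0452). The promoter of Hmgcs1 (chr13:119690101-119690350, plus strand, RefSeq, GRCm38.p6) is shown because it was the one promoter of 15 matched for the list that held the sterol response element TCACNCCAC, in capitals, searched on both strands and found in 1.3% of 11367 promoters.
Hmgcs1: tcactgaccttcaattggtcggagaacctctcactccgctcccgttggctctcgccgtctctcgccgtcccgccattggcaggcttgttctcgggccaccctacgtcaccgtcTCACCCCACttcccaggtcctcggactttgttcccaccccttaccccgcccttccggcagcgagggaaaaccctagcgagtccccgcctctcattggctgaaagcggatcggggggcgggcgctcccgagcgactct
Atp5g1, G6pc, Gpd1 and Srebf1 were called in each of the 9 fits that left out 1 library. Leaving out sham replicate 2 from the 9 libraries ended the call of Gpt (-1.03, edgeR adjusted p 0.0801), Got1 (-0.98, edgeR adjusted p 0.0894), Got2 (-0.87, edgeR adjusted p 0.0619) and Hoga1 (-2.29, edgeR adjusted p 0.0596).

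None of 80 cytosolic ribosomal protein genes passed in either direction in edgeR's fit. At an unadjusted p under 0.05, 3 were higher and 0 lower, DESeq2 called 1 higher, and the 5-library fit called 29 higher. Eef2, elongation factor 2, rose from 2722, 2782 and 2949.6 CPM to 4910.4, 5689 and 4575 (log2 fold change 0.84, SE 0.18, edgeR adjusted p 0.0253), and the initiation factor Eif4b from 287, 246 and 268 to 485, 473 and 451 (log2 fold change 0.82, SE 0.15, edgeR adjusted p 0.0155). Hspa8, the constitutive cytosolic chaperone HSC70, went from 1642, 1407 and 1665 CPM to 2882, 2924 and 2844 (log2 fold change 0.88, SE 0.18, edgeR adjusted p 0.0224). P4hb, protein disulfide isomerase of the endoplasmic reticulum and a subunit of the microsomal lipid transfer protein, fell from 3064, 3242 and 3433 CPM to 1392, 1426 and 1303 (log2 fold change -1.24, SE 0.22, edgeR adjusted p 0.012), the 1 call among 20 folding genes, where the 8-library fit without sham replicate 2 called 2 lower. Of 78 mitochondrial ribosomal protein genes 6 fell and 1 rose. Over all genes tested 5.12% fell and 3.48% rose, and the counts of this list and of the folding genes lie near those shares.

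Genes of the hypoxia response went in both directions. Ndrg1, which hypoxia and glucocorticoids both induce, measured 76.5, 107 and 80.4 CPM in sham and 491, 585 and 455 in TPN (log2 fold change 2.53, SE 0.21, edgeR adjusted p 0.00046). Egln3, a prolyl hydroxylase that hypoxia induces, went down from 64.2, 114 and 73.5 CPM to 17.6, 15.4 and 22.4 (log2 fold change -2.18, SE 0.26, edgeR adjusted p 0.00247). Of 13 hypoxia genes 2 rose, Ndrg1 and Hif3a, and 3 fell, against 3.48% and 5.12% of all genes tested. Hif3a belongs to the glucocorticoid list as well. Cirbp, the cold-inducible RNA-binding protein, fell from 25.5, 25.6 and 23.4 CPM to 10.9, 14.7 and 10.5 (log2 fold change -1.05, SE 0.18, edgeR adjusted p 0.0104). Of 21 clock genes 2 rose and 1 fell (median -0.14), against 3.48% and 5.12% of all genes tested. The 8-library fit without sham replicate 2 called 1 higher and 1 lower. The repressors Per1 (log2 fold change 1.01, SE 0.21) and Nfil3 (log2 fold change 0.79, SE 0.19) rose and Dbp (log2 fold change -1.54, SE 0.30) fell. No source used here gives the hour of collection.

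Of 13 genes of epithelial apoptosis and shedding 2 rose and 1 fell, against 3.48% and 5.12% of all genes tested. The pro-apoptotic genes Pmaip1 (Noxa) and Bcl2l11 (Bim) rose, from 65.9, 76.4 and 47.7 CPM to 394, 323 and 391 (log2 fold change 2.54, SE 0.50, edgeR adjusted p 0.0168) and from 21.4, 13.98 and 20.6 to 54.6, 59.96 and 45.3 (log2 fold change 1.51, SE 0.20, edgeR adjusted p 0.00348). Of 30 cell cycle genes Cdk4 alone passed in edgeR's fit of 9 libraries, lower in TPN (log2 fold change -0.64, SE 0.14), and 26 of 30 estimates were negative. DESeq2 called 3 lower and the 5-library fit 14. The cycling markers summed to 262 and 264 CPM in sham replicates 1 and 3, 88.7 in sham replicate 2 and 146 to 159 in TPN, so sham replicate 2 lay on the far side of the TPN libraries from the other sham libraries. The growth factor Ereg rose, from 10.99, 7.26 and 12.08 CPM to 22.9, 25.5 and 23.3 (log2 fold change 1.24, SE 0.24, edgeR adjusted p 0.0169). Ndrg1, Egln3 and Bcl2l11 were called in each of the 9 fits that left out 1 library. The call was lost in the 8-library fit without sham replicate 2 for Nfil3 (0.71, edgeR adjusted p 0.0565).

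The number of collagen calls moved with sham replicate 2. Of 34 collagen genes 9 fell and none rose (median -0.65), and without that library 5 fell in the 8-library fit and 13 in the 5-library fit. Col3a1, a fibril collagen, measured 86.0, 209.8 and 96.0 CPM in sham and 17.7, 19.4 and 24.9 in TPN (log2 fold change -2.66, SE 0.36, edgeR adjusted p 0.00424). Its sham replicates 1 and 3 still lay above all TPN libraries, and the log2 fold change without replicate 2 was -2.14. For Col6a3, of type VI collagen, the 3 sham libraries were close together, at 60.7, 66.3 and 61.9 CPM in sham and 17.2, 22.4 and 16.9 in TPN (log2 fold change -1.74, SE 0.33, edgeR adjusted p 0.0149). None of the 12 smooth muscle markers passed in edgeR, although all 12 were lower at an unadjusted p under 0.05 and 3 in DESeq2. The 5-library fit called 1 lower. Their median was -2.67 with sham replicate 2 and -0.84 without it. The fibroblast and matrix markers summed to 451, 1073 and 472 CPM in sham and 236, 268 and 302 in TPN, with 4 of 7 lower in TPN. All but 1 of those 4 are collagens of the list above, so the sum is not separate from the collagen falls. Of the 7 estimates 6 were negative and 1 positive. Pdgfra, which did not pass, measured 71.0, 63.3 and 61.3 CPM in sham and 63.6, 83.4 and 64.9 in TPN. The part of fibroblast content in the collagen falls was not tested. Loxl1, which crosslinks elastin, had a log2 fold change of -2.67 with sham replicate 2 and -1.74 without it, and Lgals1, a galectin, -2.76 and -1.42. The immediate early gene Fosb, at 12.3, 62.4 and 24.7 CPM in sham and 1.57, 1.19 and 1.76 in TPN (log2 fold change -4.43, SE 0.75, edgeR adjusted p 0.00995), was highest in the same sham library. Col3a1 was called in each of the 9 fits that left out 1 library. Without sham replicate 2 (8 libraries), the threshold was missed by Loxl1 (-1.74, edgeR adjusted p 0.0664).

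The direct comparison with starvation asked which of these genes also differed between the 2 treatments. TPN was higher than starvation for 285 genes (1.94%) and lower for 572 (3.9%). Of the 510 genes that rose against sham, 106 were also higher than in starvation and 3 were lower; of the 751 that fell, 324 were also lower and 1 was higher. Both contrasts against sham share the sham libraries, so their values are given side by side and only the direct contrast is a test. Starvation replicate 3 stood apart in its markers. Villus tip genes summed to 72937 CPM there, against 13896 and 23036 in starvation replicates 1 and 2. Enterocyte markers summed to 15656 CPM against 7543 and 8787, cycling markers to 32.0 against 184 and 152, and Paneth markers to 509 against 1883 and 1819. The part of these differences in the results that follow was not tested.

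Of the acute phase list 5 of 14 genes were higher with TPN than in starvation, and of the matrix metalloproteinase list 6 of 33. Saa3 measured 0, 0 and 1.85 CPM in starvation (log2 difference from starvation 7.06, SE 1.08, edgeR adjusted p 0.00905). Ifitm1 was 2.22 (SE 0.27) against sham with TPN and -1.01 (SE 0.28) with starvation (log2 difference from starvation 3.23, SE 0.29, edgeR adjusted p 0.00103). Mmp13 likewise had opposite signs, 1.26 (SE 0.21) and -0.99 (SE 0.21) (log2 difference from starvation 2.25, SE 0.22, edgeR adjusted p 0.0013). Srebf1 was 1.65 (SE 0.24) with TPN and -0.10 (SE 0.23) with starvation (log2 difference from starvation 1.76, SE 0.24, edgeR adjusted p 0.00575), and Hspa8 0.88 (SE 0.18) and -0.31 (SE 0.18) (log2 difference from starvation 1.19, SE 0.19, edgeR adjusted p 0.00965).

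Several uptake and detoxification genes were lower with TPN than in starvation. Slc28a1 measured 144, 207 and 273 CPM in starvation (log2 difference from starvation -3.44, SE 0.28, edgeR adjusted p 0.000764), above its sham values in each library. Gstm1 measured 166, 167 and 127 CPM in starvation (log2 difference from starvation -2.17, SE 0.16, edgeR adjusted p 0.000717), and Akr1c14 84.5, 93.1 and 87.9 (log2 difference from starvation -3.17, SE 0.29, edgeR adjusted p 0.00105). Hoga1 measured 3.75, 7.49 and 12.4 CPM in starvation (log2 difference from starvation -4.37, SE 0.54, edgeR adjusted p 0.00355), and Cirbp 62.8, 57.8 and 78.9 (log2 difference from starvation -2.47, SE 0.19, edgeR adjusted p 0.000717). Both were higher than sham in all 3 starvation libraries and lower than sham in all 3 TPN libraries. Of the hexose list 7 of 12 genes were lower than in starvation, of family 2 P450 genes 8 of 20, and of glutathione S-transferases 7 of 22.

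Other estimates against sham lay close together. Sgk1 was 2.46 (SE 0.33) with TPN and 2.47 (SE 0.33) with starvation (log2 difference from starvation -0.01, SE 0.31, edgeR adjusted p 0.989), and Igtp -1.66 (SE 0.25) and -1.62 (SE 0.25) (log2 difference from starvation -0.04, SE 0.25, edgeR adjusted p 0.941). A difference that misses the threshold does not show that the 2 treatments act alike: the SE of the direct contrast was 0.31 for Sgk1 and 0.25 for Igtp. Of the 38 interferon genes 6 were higher with TPN than in starvation and 1 was lower. Without starvation replicate 3, 482 genes were higher and 593 lower in TPN than in starvation, and without sham replicate 2 the counts were 465 and 783. Without any 1 TPN library they were 43 to 48 and 81 to 111, without sham replicate 1 177 and 363, without sham replicate 3 171 and 358, and without starvation replicate 2 143 and 319.

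**Figure D5:**
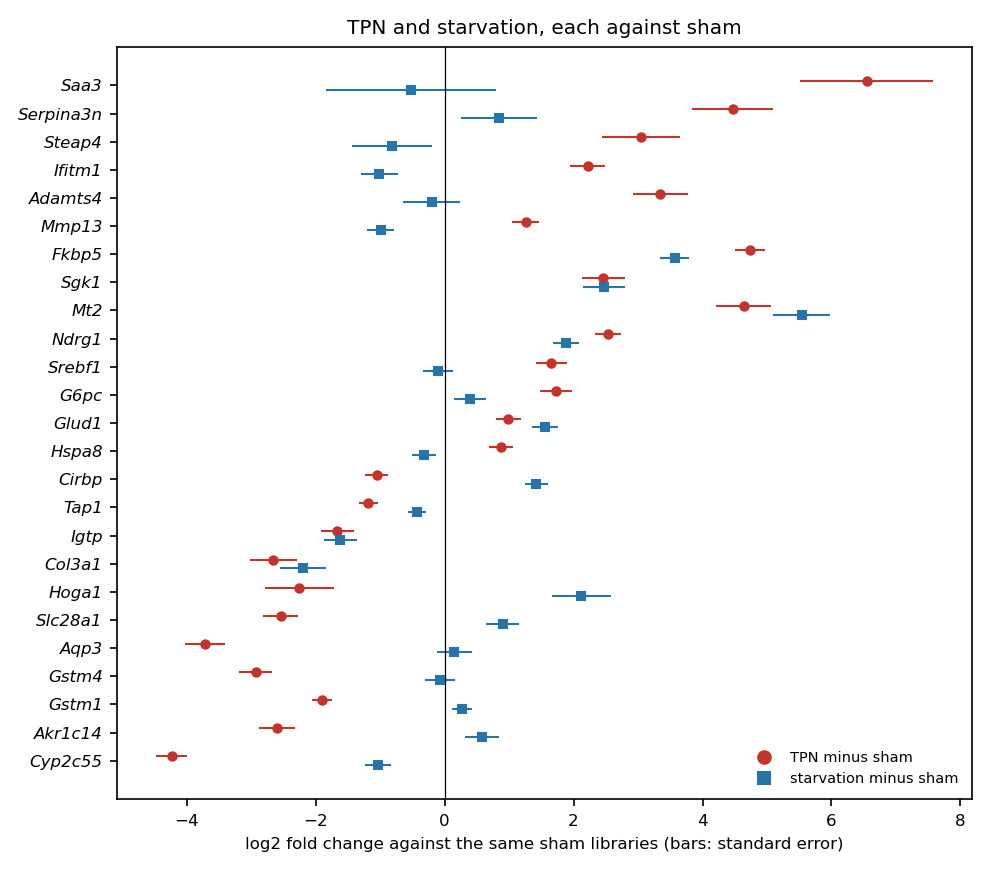
Log2 fold change against sham with its standard error for TPN (red circles) and starvation (blue squares) in 25 genes; both use the same 3 sham libraries. Cirbp, Hoga1, Slc28a1, Ifitm1 and Mmp13 have estimates of opposite sign in the 2 treatments, whereas Sgk1 and Igtp nearly coincide.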

How the data were processed

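Poly-A RNA from whole jejunal tissue was sequenced in 3 sham, 3 TPN and 3 starvation libraries. The deposited values are raw counts per protein-coding gene for 21868 genes. Per the submitters' processing notes, the tools were STAR 2.7.2e and featureCounts 2.0.0 on GRCm38 (mm10), with cutadapt 2.9, FastQC 0.11.8 and DESeq2 1.32.0. Annotation release, strand setting and handling of multimapping reads: not given in the sources used here, so reads of overlapping or near-identical genes may be shared. A further 9 columns of the table matched no sample label and were not used.

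The counts went through edgeR 4.0.16 (R 4.3.3). Genes were filtered with filterByExpr, scaled with TMM factors and fitted by quasi-likelihood on all 9 libraries in 3 groups, with 6 residual degrees of freedom and Benjamini-Hochberg adjustment over all genes tested. A call is an adjusted p under 0.05. The biological coefficient of variation was 0.314. The procedure was tested on simulated data. Precision is limited by 3 libraries per group and by depth: 1 read is worth about 0.1 CPM. Replicate libraries differed by 7.74 to 118 chi-square units per gene, so none was a copy of another.

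The comparison, 74 gene lists and 22 marker lists were chosen with earlier results of these data known. Genes were named by a rule: the 30 largest separated rises and falls with a mean log2 CPM of at least 3, up to 6 called and 4 abundant uncalled members of each list, all members of lists of up to 8 genes, the 12 most abundant calls in each direction, and lineage sentinels. Genes outside the rule, Fpr1, Fpr2, Fpr3, Ifit3, Irgm1, Serpina3f and Tap2, were chosen after their values were seen. Promoter windows came from RefSeq on GRCm38.p6 by gene symbol, and gene positions from GENCODE on GRCm38, where 21649 of 21868 symbols matched. Alternatives were DESeq2 1.42.0, other scaling factors and filters, other thresholds, fits without the starvation libraries, without sham replicate 2, without each library in turn and with the replicate number as a block. Some results are not reported here.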

Additional observations from a re-analysis of the deposited data

How the results depend on the processing

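Against sham, 510 genes were higher and 751 lower in TPN. These counts became 1035 and 1386 with DESeq2, 1130 and 1644 with only the sham and TPN libraries, 2251 and 2483 with those libraries less sham replicate 2, 2232 and 2193 without sham replicate 2 and starvation replicate 3 together, 97 and 161 at an adjusted p under 0.01, and 282 and 380 with at least a 2-fold change. Leaving out 1 library gave 83 to 1477 higher and 125 to 1705 lower. Upper quartile factors (702 and 665), library totals (651 and 573), no filter (392 and 642) and a minimum CPM of 1 in 3 libraries (512 and 753) stayed within 1.5 times, but the share of calls that were lower went from 59.6% to 48.6% and 46.8% under the first 2 of these. The estimate for Nr3c1, TPN minus sham, which did not pass, changed sign to 0.0126 with library totals. Under none of the alternatives was any of the 1261 genes called the other way.

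Against starvation, 285 genes were higher and 572 lower. DESeq2 gave 692 and 1099, the fit without sham replicate 2 and starvation replicate 3 together 1500 and 1705, an adjusted p under 0.01 42 and 102, and at least a 2-fold change 169 and 363. Leaving out 1 library gave 43 to 482 higher and 81 to 826 lower.

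Same-numbered sham and TPN libraries did not deviate together (correlations of 0.121, -0.3 and -0.0161), and nothing in the labels says that the numbers pair them. With the replicate number as a block the counts were 203 and 353 against sham and 133 and 253 against starvation. With the replicate block and the muscle-rich sham library left out they were 78 and 130, and 187 and 264. Genes of a few CPM, such as Hoga1, rest on few reads per library. The cause of each shift in the counts was not tested.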

Other observations

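Large changes also fell outside the lists. N4bp2l1, whose product is little characterised, measured 21.3, 13.0 and 21.8 CPM in sham and 109.5, 94.2 and 96.0 in TPN (log2 fold change 2.41, SE 0.20, edgeR adjusted p 0.00046). Chd9, a chromatin remodeller, went from 91.1, 66.8 and 94.2 CPM to 311, 555 and 279 (log2 fold change 2.18, SE 0.35, edgeR adjusted p 0.00842), and the transcriptional regulator Mecom from 13.6, 4.27 and 10.9 to 49.0, 40.5 and 37.7 (log2 fold change 2.14, SE 0.35, edgeR adjusted p 0.00889). Pappa, a protease that frees insulin-like growth factor from its binding proteins, went from 5.20, 0.213 and 3.83 CPM to 45.3, 46.5 and 31.2 (log2 fold change 3.71, SE 0.89, edgeR adjusted p 0.0367). The more abundant Ivns1abp measured 244, 185 and 215 CPM in sham and 978, 958 and 853 in TPN (log2 fold change 2.11, SE 0.18, edgeR adjusted p 0.00046), and Serinc3 433, 422 and 375 in sham and 956, 961 and 895 in TPN (log2 fold change 1.19, SE 0.16, edgeR adjusted p 0.00374). In all 6 genes every TPN library lay above every sham library. Groups without overlap were found for all 1261 called genes and for 42.7% of all genes tested.

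Among the falls, Acy3, an aminoacylase that acts on mercapturic acids, measured 73.3, 82.5 and 86.5 CPM in sham and 13.7, 8.22 and 11.9 in TPN (log2 fold change -2.84, SE 0.37, edgeR adjusted p 0.00357). Acsf2, a mitochondrial acyl-CoA synthetase, went from 129, 111 and 107 CPM to 16.9, 16.7 and 17.5 (log2 fold change -2.76, SE 0.32, edgeR adjusted p 0.00242), at a locus that overlaps another gene. Susd2, a membrane protein, went from 123.2, 445 and 183 CPM to 29.3, 30.5 and 30.3 (log2 fold change -3.06, SE 0.63, edgeR adjusted p 0.0202). Ubd, the ubiquitin-like modifier FAT10, measured 19.6, 28.8 and 14.4 CPM in sham and 2.14, 3.34 and 4.64 in TPN (log2 fold change -2.63, SE 0.58, edgeR adjusted p 0.0268). N4bp2l1, Chd9, Ivns1abp, Serinc3, Acy3 and Acsf2 were called in each of the 9 fits that left out 1 library. Leaving out sham replicate 2 from the 9 libraries ended the call of Ubd (-2.33, edgeR adjusted p 0.06).

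Calls of the same direction formed 24 runs of at least 3 genes, 18 of falls and 6 of rises. Members of a run are adjacent among the genes tested that had a position, and untested genes may lie between them. The runs were counted after the values were seen and with no test. The longest held the 6 Gstm genes. A run of 5 Nat8 family genes, N-acetyltransferases of mercapturic acid synthesis and related reactions, fell at chr6:85808024-85904884. Slc2a5, Slc2a7 and Eno1 formed another run of falls at chr4:150119283-150248879. Members of such clusters are often close copies, and the part of shared reads was not tested.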
